A study of Mus musculus with 10 samples.

Results

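The genes described here are 35 genes of the mammary stroma, out of 46983 genes counted in each library. They encode extracellular matrix proteins other than collagens, together with surface and cytoskeletal proteins of fibroblasts, and they were taken from a list of symbols, each of which was found in the counts. By role, 8 belong to the small leucine-rich proteoglycans (SLRPs) and dermatopontin, 12 to the elastic fibre and its microfibrils, 10 to the adhesive and matricellular glycoproteins and procollagen processing, and 5 to the fibroblast surface and cytoskeleton.

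RNA was measured in the right thoracic mammary fat pads of virgin female C57BL/6 mice at postnatal day (PND) 130, 1 library per mouse. In 5 mice the diet had contained 1 mg folic acid (FA)/kg (control FA, CFA), and in 5 mice 5 mg FA/kg (high FA, HFA). No genotype beside the strain is labelled, and both groups ate the same maintenance diet for the last 4 weeks, so the comparison asks whether the earlier FA intake left a trace in the transcriptome. Each library is a whole fat pad, in which fibroblasts, adipocytes, epithelium, vessels and any lymph node or muscle taken with it are mixed, and fewer fibroblasts cannot be told apart from less RNA per fibroblast. Libraries are named by their sample titles, which are T1224, T1234, T1314, T1324 and T1334 for CFA and T2214, T2224, T2234, T2314 and T2334 for HFA. Values are given in that order.

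In the mammary gland the stroma surrounds the ducts and fills the fat pad, and its fibroblasts secrete most of the matrix. SLRPs such as decorin and lumican bind collagen fibrils and set their diameter and spacing. Fibrillin microfibrils form the scaffold on which elastin is deposited, with fibulins and microfibril-associated proteins along them, and they also hold latent growth factors of the TGF-beta family. Matricellular proteins such as periostin, SPARC, tenascins and thrombospondins are secreted into the matrix and alter how cells attach to it.

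Gene reads ranged from 7672199 to 14829291 among the libraries, and 15610 genes, all 35 members among them, had enough reads to be tested. Levels are given as CPM, the reads of a gene per 1000000 gene reads, in which each library's total was first scaled by the trimmed mean of M values (TMM), and, between genes, as RPKM, the CPM per kilobase of exon. Libraries T1234, T1334 and T2334 stood apart by markers of lymphocytes. The 7 B cell markers had a mean of 5.57 to 8.52 log2 CPM in these 3 libraries and of -0.78 to -0.25 in the other 7, and the 7 T cell markers of 4.19 to 6.63 against -0.16 to 0.74. None of the 14 markers was at 0 in any library. Their summed CPM was 3.54 to 903 in CFA and 4.49 to 2630 in HFA libraries for B cells, and 9.83 to 310 in CFA and 6.22 to 749 in HFA libraries for T cells. Library T2334 also had the lowest skeletal muscle markers (6.03 log2 CPM against 8.94 to 12.11 elsewhere) and the lowest epithelial markers, and its median correlation with the other libraries over genes was 0.940, against 0.978 to 0.992 for the rest. The comparison of the diets is therefore also given without T1234, T1334 and T2334. The spread between mice, the ranks of the libraries and the interaction described below rest on all 10 libraries. In the HFA libraries other than T2334 the muscle markers were at 11.76 to 12.11, above the 8.94 to 11.61 of the CFA libraries. Their part in the levels of the members was not tested.

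Promoter sequence is shown for the members that code for periostin, thrombospondin 2 and the surface peptidase DPP4, because these are among the members with the lowest and the highest fold changes between the diets. The 150 bases shown lie outside the annotated span of the gene itself, and exons of other genes were not looked for in them. The sequences are from RefSeq (GRCm38.p6), 5' to 3' on the strand of the gene, and capitals mark matches to 5 motifs searched on both strands, the TATA box TATAAA, the CCAAT box, the GC box GGGCGG, the AP-1 site TGANTCA and the TEAD site GGAATG.
Postn, chr3:54360957-54361106, plus strand: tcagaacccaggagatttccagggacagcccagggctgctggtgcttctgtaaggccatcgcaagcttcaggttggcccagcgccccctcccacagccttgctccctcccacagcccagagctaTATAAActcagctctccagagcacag
Thbs2, chr17:14694263-14694412, minus strand: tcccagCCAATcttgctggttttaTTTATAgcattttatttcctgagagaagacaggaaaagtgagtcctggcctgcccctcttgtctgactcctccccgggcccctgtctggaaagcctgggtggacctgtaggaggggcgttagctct
Dpp4, chr2:62412232-62412381, minus strand: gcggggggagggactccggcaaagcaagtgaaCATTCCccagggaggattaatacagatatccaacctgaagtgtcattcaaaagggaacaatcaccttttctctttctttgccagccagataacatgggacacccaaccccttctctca
The TATAAA of *Postn* lay 26 to 21 bases before the start, and another start of *Postn* in the table had no match, while the TATA match in *Thbs2* was its reverse complement, 126 to 121 bases before the start, beside a CCAAT at 144 to 140. In *Dpp4* the match was the reverse complement of the TEAD motif. Of the 35 members, 26 had an entry in the RefSeq table, with 32 promoters in all. TATAAA was present in 4 of these 32 promoters (1 each of *Postn*, *Thbs2*, *Tnc* and *Vim*) and in 7.57% of all 32851 promoters, CCAAT in 6 and in 24.5%, GGGCGG in 9 and in 28.6%, TGANTCA in 1 and in 4.24%, and GGAATG in 3 and in 7.59%. These are matches of letters and not measured binding.

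Diet separated few of these genes. In edgeR's quasi-likelihood test, adjusted by Benjamini and Hochberg's method over all genes tested, 0 of the 35 members passed an adjusted p of 0.05, with a smallest adjusted p of 0.577, and the share of all genes that passed was also 0%. At an unadjusted p below 0.05 there were 2 members, *Fbn2* and *Postn*, both lower in HFA, beside 7.36% of all genes. The likelihood ratio test, DESeq2 and limma voom with quality weights each called 1 member, *Fbn2*, beside 0.211%, 0.384% and 6.64% of all genes. Limma voom without weights called 0 members and 0% of all genes. The log2 fold change (HFA minus CFA) was above 0 for 19 members and below 0 for 16, against 60.0% of all genes above 0, and its median was 0.05 over the members and 0.06 over all genes. With upper-quartile scaling 18 members and 49.6% of all genes were above 0. Under limma voom 9 members and 51.8% of all genes were above 0, and with lymphocyte markers as a covariate 11 members and 54.6%, so no direction of the whole list can be given. Direction also rested on single libraries, with 10 members above 0 without T2224 (61.0% of all genes), 23 without T2334 (44.9%) and 24 without T2314 (59.8%).

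The spread within HFA was the wider one. The mean over the members was 6.27 ± 0.44 log2 CPM in CFA and 5.90 ± 1.06 in HFA (SD, n = 5 each). Library T2224 held the highest level of 23 members, T2334 the lowest of 23 and T2314 the lowest of 10, and all 3 are HFA libraries. The members took from 0.250% of the gene reads in T2314 to 1.01% in T2224. The coefficient of variation between mice had a median of 31.4% in CFA and 63.0% in HFA, and it was larger in HFA for 34 of the 35 members, with *Fbn2* the exception. Over all genes tested the medians were 18.9% and 30.6%, and HFA was the more variable for 79.9%. Over all 10 libraries the ratio of the highest to the lowest CPM ranged from 1.71 for *Vim* to 120 for *Fbn2*, with a median of 8.96. Macrophage markers had their lowest mean in T2314 (4.02 log2 CPM) and their highest in T2224 (6.97), and T2314 was also low and T2224 high for most members. In T2334, the lowest library for 23 members, macrophage markers were at 5.85, against 5.67 ± 0.25 in CFA (SD, n = 5). The part of these markers in the spread was not tested.

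**Figure D1:**
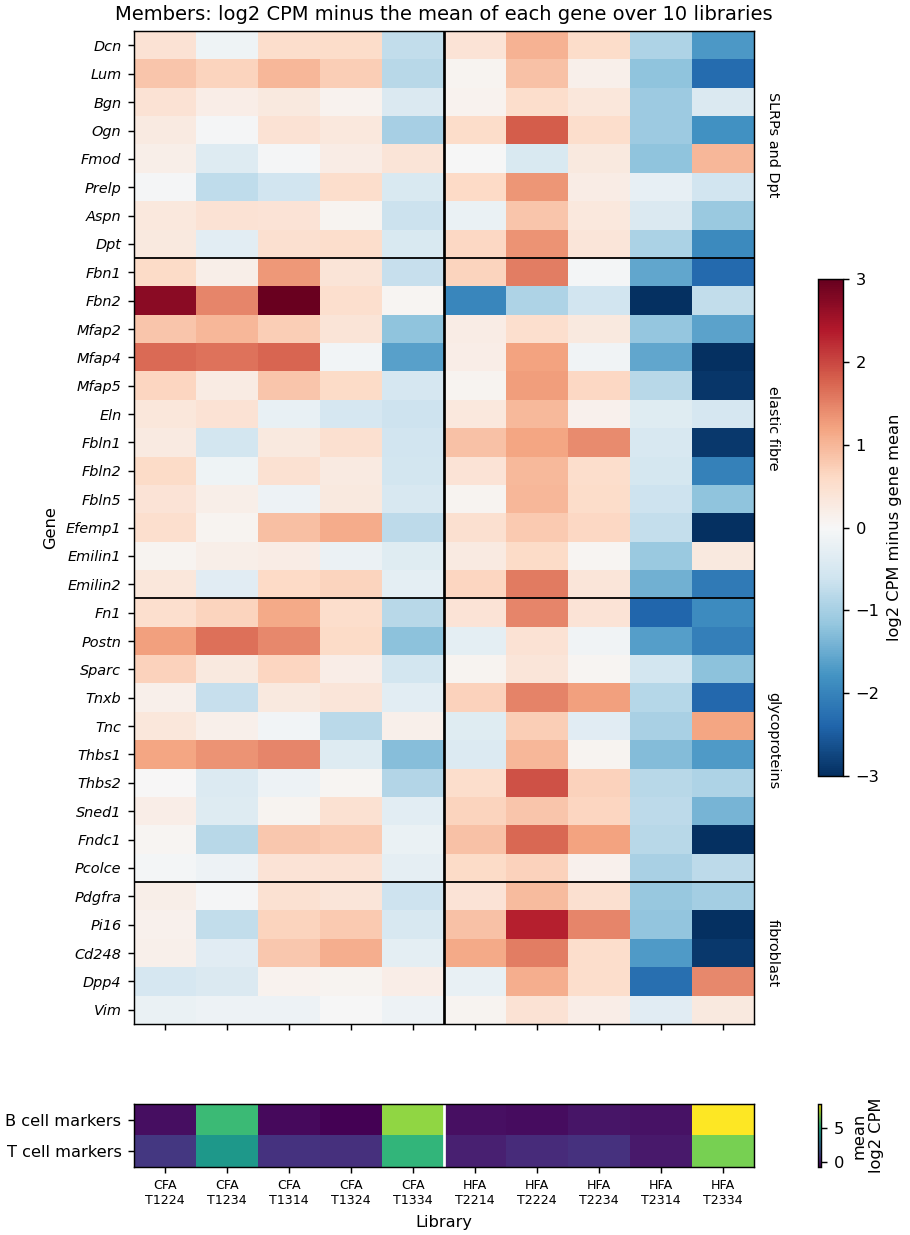
Log2 CPM of the 35 members minus the mean of each gene, in the 5 CFA (left) and 5 HFA (right) libraries, by role group, with the mean log2 CPM of B and T cell markers below. Most rows are blue in T2314 and T2334 and red in T2224, while *Fbn2* and *Postn* are redder in most CFA libraries.

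Per kilobase of exon the members covered a wide range. *Sparc* was the most abundant with a mean of 369 RPKM over the 10 libraries, followed by *Dpt* (175), *Dcn* (118), *Vim* (114), *Postn* (105) and *Lum* (91.8). *Dcn*, *Vim* and *Postn* differed by less than the SD of any of the 3 between HFA mice, so their order is not fixed. The lowest were *Tnc* (2.06) and *Fbn2* (1.14). Reads of 15 members could also lie on exons of an overlapping gene, and this covered over 5% of the exonic bases in *Fbn1*, *Sned1* and *Prelp*.

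Among the SLRPs and dermatopontin, 4 of 8 members had a log2 fold change above 0 and 4 below, with a median of -0.01, and by edgeR 0 passed at an adjusted or an unadjusted p of 0.05. *Dcn* (chr10:97479609-97518143, plus strand) encodes decorin, which decorates collagen fibrils. Its CPM was 815, 547, 862, 883 and 359 in CFA and 796, 1229, 876, 317 and 181 in HFA. The HFA libraries thus included both the highest and the 2 lowest values, and the groups overlapped, with a log2 fold change of -0.03 ± 0.48 (SE) and an adjusted p of 0.992 by edgeR.

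*Dpt* (chr1:164796644-164824266, plus strand) encodes dermatopontin, a partner of decorin in collagen fibril assembly. Its CPM was 316, 206, 360, 370 and 186 in CFA and 394, 658, 331, 133 and 68.8 in HFA. Again HFA held both extremes, and the log2 fold change was 0.14 ± 0.51 (adjusted p = 0.954, edgeR). The other 6 were *Lum* (lumican), *Bgn* (biglycan), *Ogn* (osteoglycin), *Fmod* (fibromodulin), *Prelp* and *Aspn* (asporin), with fold changes from -0.71 (*Lum*) to 0.60 (*Prelp*). *Lum* was between 293 and 368 CPM in 4 CFA libraries and 103 in T1334, and between 37.1 and 336 in HFA. *Fmod* had its highest value, 23.4 CPM, in T2334, where *Dcn*, *Lum*, *Ogn*, *Aspn* and *Dpt* had their lowest. *Bgn* was lowest in T2314 and *Prelp* in T1234.

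Of the 12 elastic fibre and microfibril genes, 5 had a fold change above 0 and 7 below, with a median of -0.12, and by edgeR 0 passed the adjusted threshold and 1 an unadjusted p of 0.05. *Fbn2* (chr18:58008623-58210487, minus strand) encodes fibrillin-2, the microfibril protein best known from developing tissues. Its CPM was 45.6, 19.4, 55.0, 9.75 and 7.16 in CFA and 1.66, 3.54, 4.54, 0.457 and 4.07 in HFA. Each HFA value was below each CFA value, and T1224 and T1314 were well above the other CFA libraries. *Fbn2* was the single member whose groups did not overlap with HFA lower, a pattern seen in 0.243% of all genes.

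The mean of *Fbn2* was 27.4 ± 21.7 CPM in CFA and 2.85 ± 1.73 in HFA (SD, n = 5 each), 9.59-fold higher in CFA. The log2 fold change was -3.26 ± 0.72, the largest in size among the members, with an adjusted p of 0.577 by edgeR's quasi-likelihood test. By the likelihood ratio test the adjusted p was 0.00754, with 0.211% of all genes called, and by DESeq2 it was 0.00112, with 0.384% called. Limma voom gave 0.690 without quality weights and 0.0476 with them, where 6.64% of all genes were called. The call thus depended on the test, while the fold change stayed between -3.51 and -2.90 when each library was left out in turn. Epithelial markers were at 7.66, 7.79, 7.38, 7.19 and 5.60 log2 CPM in CFA and 6.94, 6.51, 6.95, 6.68 and 4.63 in HFA. Skeletal muscle markers were at 10.50, 8.94, 10.49, 11.28 and 11.61 in CFA and 11.83, 12.11, 11.76, 12.09 and 6.03 in HFA. Their part in the level of *Fbn2* was not tested.

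Without T1234, T1334 and T2334, the libraries with lymphocyte markers, *Fbn2* was lower in HFA by the quasi-likelihood test (-3.89 on the log2 scale, adjusted p = 0.0428, edgeR), as the 1 member among the 2.98% of all genes that passed. This fit was added after the values had been seen. It kept T1224, T1314 and T1324 in CFA and T2214, T2224, T2234 and T2314 in HFA. It left out *Fbn2* values of 19.4 (T1234) and 7.16 (T1334) CPM in CFA and of 4.07 (T2334) in HFA. In that fit 18 of the 35 members were above 0, against 51.0% of all genes. The lowest library held 5 reads of *Fbn2*, so that its level there is loosely set by counting. An antisense gene, Gm26507, shares 129 exonic bases with it, and the counting is not stated to have used strand.

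*Fbn1*, the fibrillin of adult tissue, did not share this pattern. It was 187 ± 90.1 CPM in CFA and 159 ± 147 in HFA (SD, n = 5 each), with a log2 fold change of -0.23 ± 0.65 (adjusted p = 0.940, edgeR). The RPKM of *Fbn2* was 21.0%, 11.8%, 15.4%, 5.18% and 7.99% of that of *Fbn1* in CFA and 0.721%, 0.839%, 3.28%, 0.931% and 14.3% in HFA. In 4 of 5 HFA libraries it was thus below every CFA library, and in T2334, where *Fbn1* itself was at its lowest, it was within the CFA range. This pair was chosen after its values had been seen, and no test was made.

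*Mfap4* (chr11:61485431-61488900, plus strand) encodes a microfibril-associated protein that binds elastin and collagen. Its CPM was 17.3, 16.5, 17.8, 4.84 and 1.57 in CFA and 5.98, 12.2, 4.82, 1.65 and 0.446 in HFA. The first 3 CFA libraries were above all HFA libraries, but the other two lay inside the HFA range, and the log2 fold change was -1.21 ± 0.82 (adjusted p = 0.754, edgeR).

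*Efemp1* (chr11:28853204-28926743, plus strand), which encodes fibulin-3, and *Fbln2* (chr6:91212455-91272540, plus strand), which encodes fibulin-2, were the most abundant of the elastic fibre genes by RPKM. The CPM of *Efemp1* was 140, 105, 184, 214 and 56.7 in CFA and 136, 169, 152, 59.5 and 12.3 in HFA. That of *Fbln2* was 155, 96.3, 145, 127 and 71.6 in CFA and 140, 205, 152, 72.3 and 25.8 in HFA. For both genes the groups overlapped over most of their range, with log2 fold changes of -0.41 ± 0.59 for *Efemp1* (adjusted p = 0.887, edgeR) and -0.00 ± 0.46 for *Fbln2* (adjusted p = 1.000). The mean of *Eln*, the elastin gene, was 61.8 ± 20.9 CPM in CFA and 74.0 ± 32.4 in HFA, and its fold change was 0.26. The rest of the group (*Mfap2*, *Mfap5*, *Fbln1*, *Fbln5*, *Emilin1* and *Emilin2*) had fold changes from -0.65 (*Mfap2*) to 0.56 (*Fbln1*).

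**Figure D2:**
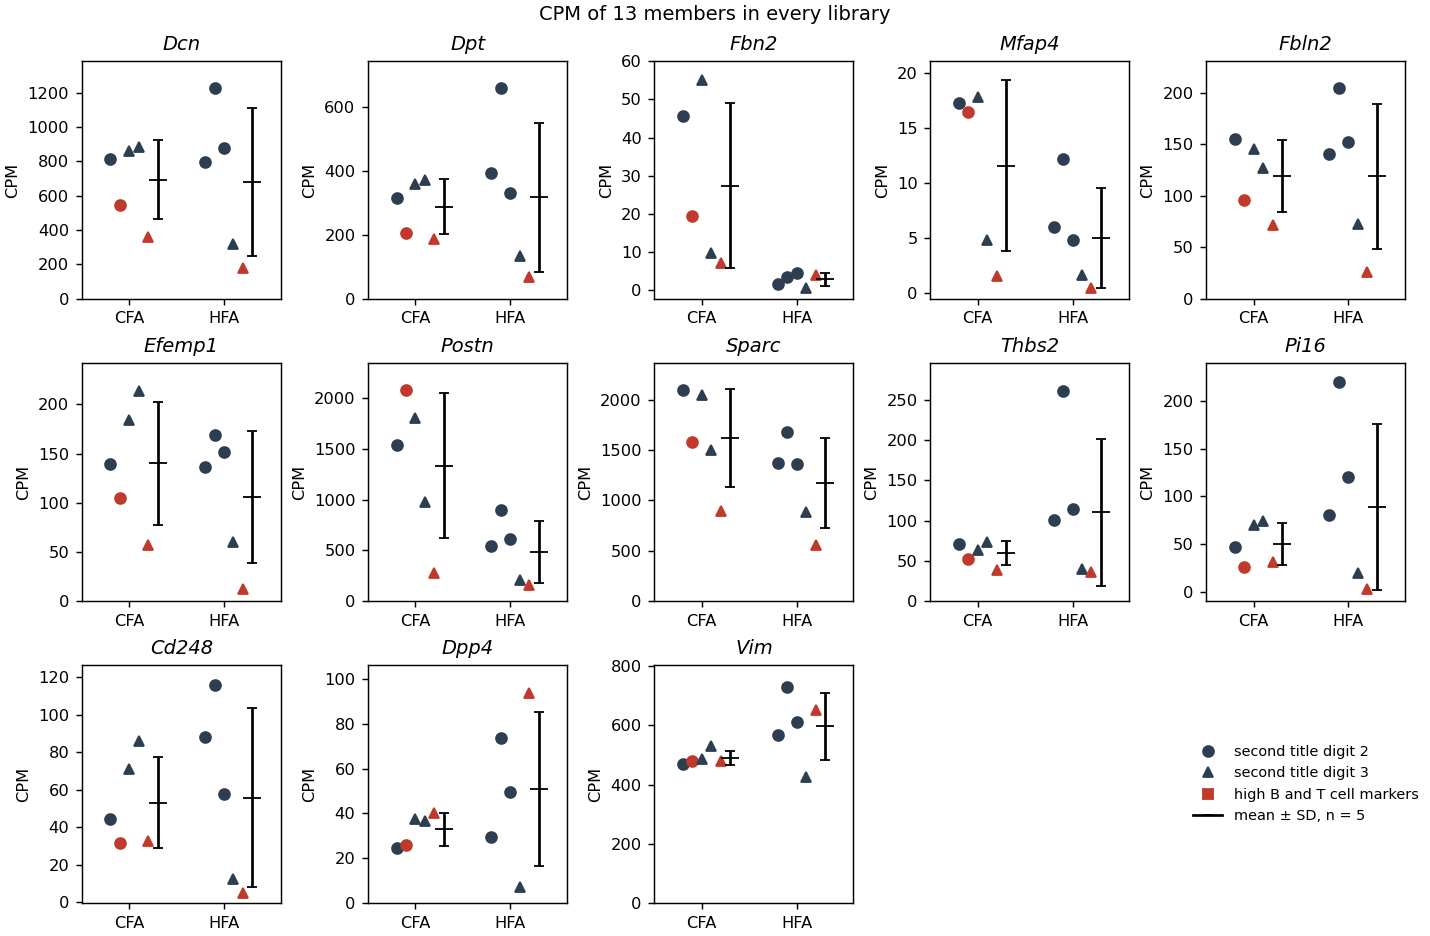
CPM of 13 members in each CFA and HFA library, with the mean ± SD (n = 5) beside the points. Circles and triangles are libraries with 2 and 3 as the second digit of the title, red marks the libraries with high B and T cell markers, and *Fbn2* is the single panel in which the groups do not overlap.

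The adhesive and matricellular glycoproteins, with the procollagen processing enhancer *Pcolce*, had 5 of 10 fold changes above 0 and 5 below, with a median of 0.08, and by edgeR 0 passed the adjusted threshold and 1 an unadjusted p of 0.05. *Postn* (chr3:54361109-54391037, plus strand) encodes periostin, made by activated fibroblasts and bound to fibrillar collagen and fibronectin. Its CPM was 1541, 2079, 1804, 981 and 279 in CFA and 543, 893, 613, 210 and 159 in HFA. In 4 of 5 CFA libraries *Postn* was above every HFA library, and T1334, with B and T cell markers, was low. The mean was 1337 ± 717 CPM in CFA and 484 ± 303 in HFA (SD, n = 5 each), 2.76-fold higher in CFA.

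The log2 fold change of *Postn* was -1.47 ± 0.59, with an unadjusted p of 0.0308 and an adjusted p of 0.656 by edgeR. The unadjusted p was no longer below 0.05 when T1224, T1234, T1314 or T2314 was left out, although the fold change stayed between -1.81 and -1.27. Without T1234, T1334 and T2334 the log2 fold change was -1.35 (adjusted p = 0.106, edgeR). Epithelial markers were also lower in HFA (6.34 ± 0.97 against 7.12 ± 0.88 log2 CPM), and their part in this difference was not tested.

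*Sparc* (chr11:55394500-55423183, minus strand) encodes SPARC, a collagen-binding matricellular protein. Its CPM was 2094, 1586, 2048, 1504 and 894 in CFA and 1368, 1682, 1364, 883 and 555 in HFA. Only T1224 and T1314 were above all HFA libraries, and the log2 fold change of -0.47 ± 0.34 did not pass the test (adjusted p = 0.765, edgeR).

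*Thbs2* (chr17:14665500-14694235, minus strand) encodes thrombospondin 2, an inhibitor of vessel growth. Its CPM was 70.9, 52.7, 62.8, 73.3 and 38.1 in CFA and 100.2, 262, 114, 39.5 and 36.5 in HFA. In HFA the 3 libraries with 2 as the second digit of the title were above all CFA libraries and the other two were near the lowest CFA value. The log2 fold change was 0.89 ± 0.49, the highest of the members, with an adjusted p of 0.699 by edgeR.

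Its paralogue *Thbs1* had a log2 fold change of the other sign, -0.95 ± 0.62 (adjusted p = 0.744, edgeR), with 185 ± 114 CPM in CFA and 95.9 ± 72.2 in HFA (SD, n = 5 each). The ratio of *Thbs1* to *Thbs2* in RPKM was 3.93, 5.87, 5.35, 1.27 and 1.31 in CFA and 0.916, 0.934, 1.13, 1.26 and 1.03 in HFA. Each CFA ratio was above each HFA ratio, although T1324 and T1334 exceeded the highest HFA library by little. This ratio too was looked at after the values were known and was not tested. Further pairs were looked at in the same way, and their groups overlapped. *Postn* over *Sparc* ran from 0.136 to 0.571 in CFA and from 0.104 to 0.231 in HFA. *Pi16* over *Vim* ran from 0.0403 to 0.107 in CFA and from 0.00327 to 0.225 in HFA. *Fn1* (fibronectin), *Tnxb* and *Tnc* (tenascins X and C), *Sned1*, *Fndc1* and *Pcolce* had fold changes from -0.30 (*Fn1*) to 0.57 (*Tnxb*). *Tnc* was highest in T2334 with 33.1 CPM and lowest in T2314 with 7.31.

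**Figure D3:**
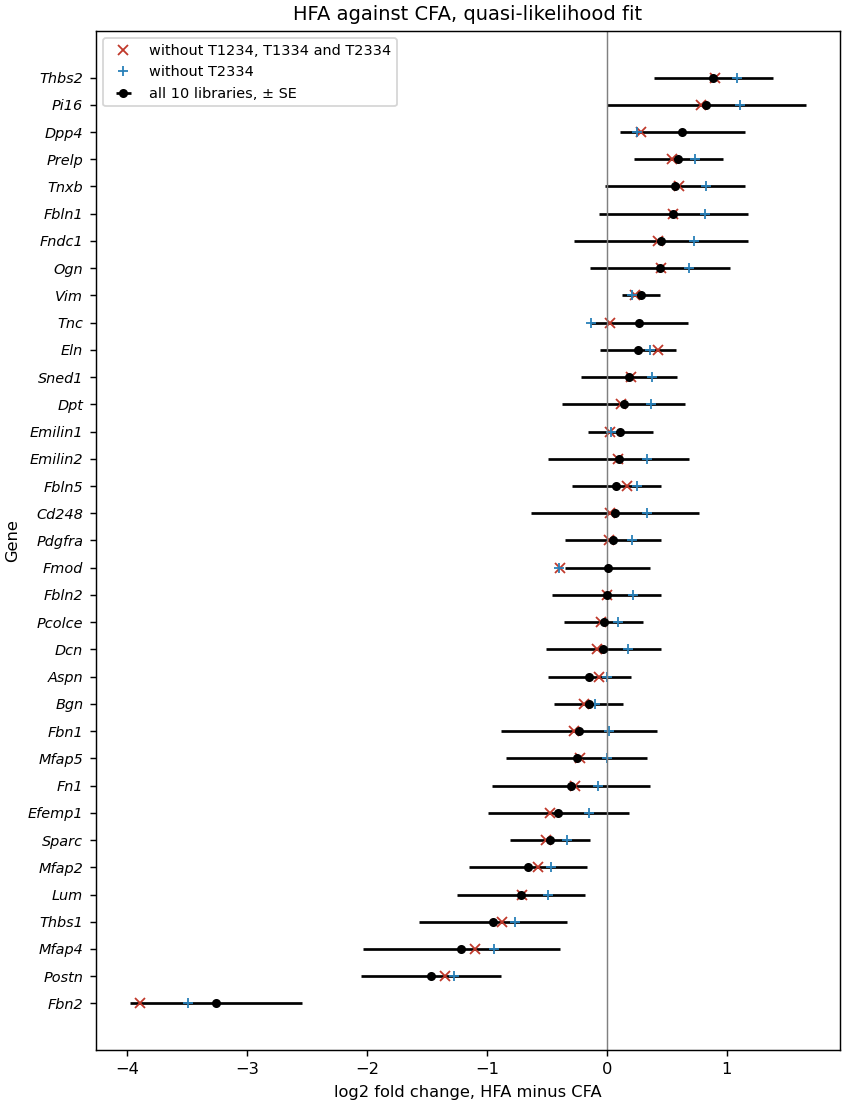
Log2 fold change (HFA minus CFA) of the 35 members in order of size, with the SE, from the quasi-likelihood fit of all 10 libraries. Crosses show the fit without T1234, T1334 and T2334 and plus signs the fit without T2334, and *Fbn2* lies lowest in each, with *Postn* next.

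All 5 fibroblast surface and cytoskeleton genes had a fold change above 0, with a median of 0.29, and by edgeR 0 of them passed at an adjusted or an unadjusted p of 0.05. That direction did not hold under every fit, since 2 of 5 were above 0 under limma voom or when the second title digit was a term of the model. It also rested on single libraries, with 3 of 5 above 0 without T1234, T1334, T2214 or T2224.

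*Vim* (chr2:13573927-13582826, plus strand) encodes vimentin, the intermediate filament of mesenchymal cells. Its CPM was 468, 479, 485, 530 and 481 in CFA and 566, 728, 610, 425 and 652 in HFA. In 4 of 5 HFA libraries *Vim* was above every CFA library, and T2314 was the lowest of the 10. Macrophage markers were also highest in T2224 (6.97 log2 CPM) and lowest in T2314 (4.02). The B cell markers were at 8.52 in T2334, where *Vim* was at 652 CPM. In T1234 and T1334, which also had lymphocyte markers, *Vim* was at 479 and 481. The part of these cells in its level was not tested. The log2 fold change was 0.29 ± 0.16 (adjusted p = 0.699, edgeR), and *Vim* was the steadiest of the members in CFA, with an SD of 24.2 CPM around a mean of 489.

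*Cd248* (chr19:5068078-5070682, plus strand) encodes endosialin, a surface glycoprotein of fibroblasts and pericytes. Its CPM was 44.6, 31.7, 71.0, 86.1 and 32.98 in CFA and 88.1, 116, 57.8, 12.3 and 5.28 in HFA. HFA held the 2 highest and the 2 lowest values. The log2 fold change was 0.07 ± 0.70 (adjusted p = 0.986, edgeR).

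*Pi16* and *Dpp4* mark a fibroblast population found in many tissues, often around vessels. *Pi16* (chr17:29317680-29330593, plus strand), which encodes peptidase inhibitor 16, was at 47.2, 25.9, 69.6, 74.7 and 30.9 CPM in CFA and at 80.4, 220, 120, 19.1 and 2.86 in HFA. The first 3 HFA libraries were above all CFA libraries and the other two were below all of them, with a log2 fold change of 0.83 ± 0.83 (adjusted p = 0.834, edgeR). *Dpp4* (chr2:62330073-62412231, minus strand) was at 24.4, 25.7, 37.6, 36.4 and 40.1 CPM in CFA and at 29.7, 73.7, 49.7, 7.04 and 94.0 in HFA.

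*Dpp4* was thus highest in T2334, where *Pi16* was lowest, and its log2 fold change was 0.63 ± 0.52 (adjusted p = 0.792, edgeR). DPP4 is also known as CD26, a surface protein of T cells, whose markers were at 6.63 log2 CPM in T2334, and their part in its level there was not tested. *Pdgfra*, the platelet-derived growth factor receptor that marks fibroblasts, differed little between the diets, with 91.6 ± 24.3 CPM in CFA and 94.9 ± 54.2 in HFA (SD, n = 5 each).

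The sample titles carry a second digit whose meaning is not given in the labels or the methods. It is 2 in T1224, T1234, T2214, T2224 and T2234 and 3 in the other 5 libraries, so both diets occur under each. With the digit 2, 26 of the 35 members were higher in HFA and the median difference in mean log2 CPM was 0.33, against 48.0% of all genes higher and a median of -0.02. With the digit 3, 3 members were higher in HFA and 32 were lower, and the median was -1.36, against 54.7% of all genes higher and a median of 0.05. Since T2334 has lymphocyte markers, T2314 was also set alone against the mean of T1314 and T1324, the libraries of that digit without such markers. It was lower for 35 of 35 members, with a median of -1.46, where 49.6% of all genes were lower. This sets a single library against T1314 and T1324, was chosen after the markers had been seen and was not tested. Most members were low together in T2314, so their count is not a count of separate observations. Markers of other cells also differed in this library, with macrophage markers at 4.02 log2 CPM in T2314 against 5.94 in T1314 and 5.72 in T1324, and brown adipocyte markers at 6.97 against 4.20 and 4.95, and their part in the difference was not tested.

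The difference between the digits was tested as an interaction of diet and digit. By edgeR's quasi-likelihood test 0 of the 35 members passed an adjusted p of 0.05, as did 0% of all genes, and the smallest adjusted p was 0.568. At an unadjusted p below 0.05 there were 21 members, each with a negative interaction, while 8.46% of all genes were below 0.05, in either direction, and 3.91% with a negative sign. The interaction was negative for 33 members, against 46.5% of all genes. The likelihood ratio test called 3 members, *Cd248* (-4.05 on the log2 scale, adjusted p = 0.00169, edgeR), *Emilin2* (-3.06, adjusted p = 0.0311) and *Tnxb* (-2.95, adjusted p = 0.0398), with 0.199% of all genes called.

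In 10 members all HFA libraries were above all CFA libraries with the digit 2 and below all of them with the digit 3, a pattern held by 1.14% of all genes. These were *Ogn*, *Dpt*, *Emilin2*, *Tnxb*, *Sned1*, *Fndc1*, *Pcolce*, *Pdgfra*, *Pi16* and *Cd248*, drawn from each of the 4 role groups. The opposite pattern was held by 0 members. *Fbn2* did not follow the digit, with a difference of -3.24 with the digit 2 and -3.29 with the digit 3, and *Postn* was lower in HFA with both (-1.42 and -2.11). With 2 HFA libraries under the digit 3, the digit cannot be told apart from a property of those 2 mice.

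**Figure D4:**
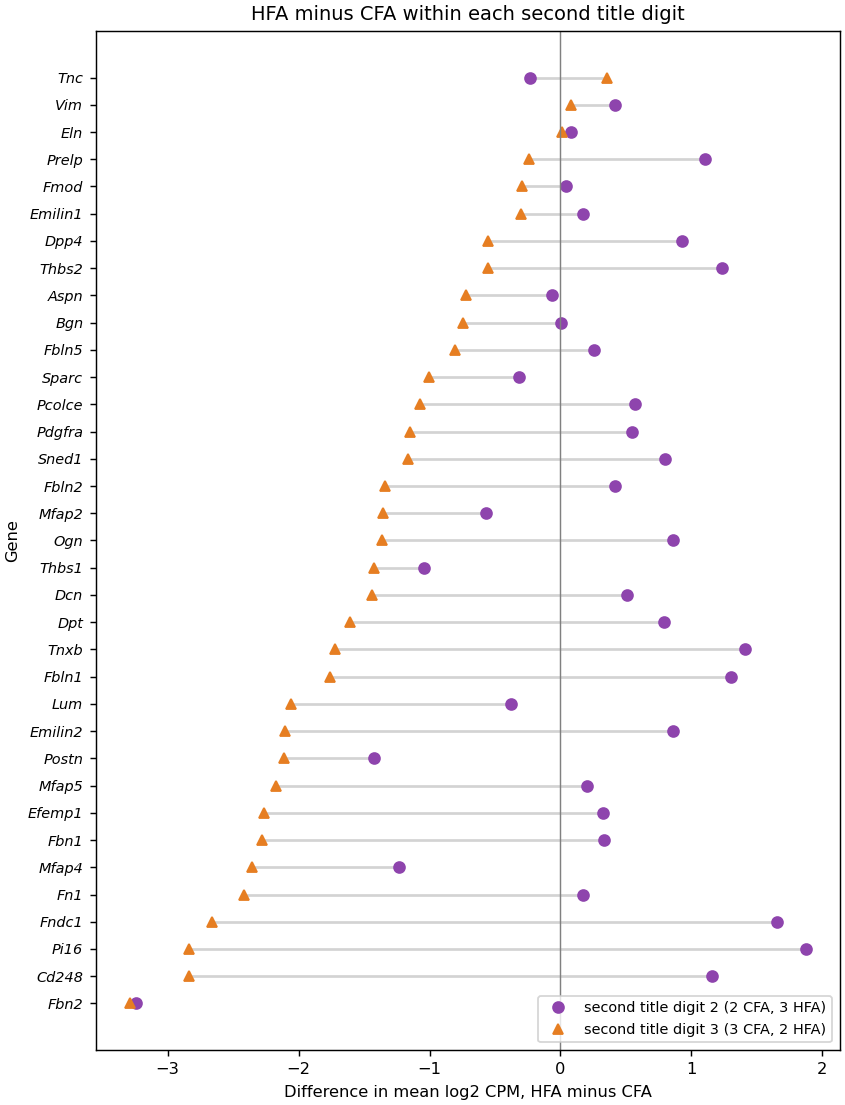
Difference in mean log2 CPM (HFA minus CFA) of each member among the libraries with 2 (circles, 2 CFA and 3 HFA) and with 3 (triangles, 3 CFA and 2 HFA) as the second digit of the title. Triangles lie left of 0 for 32 members and circles right of 0 for 26, and both markers of *Fbn2* lie near -3.3.

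Other matrix and fibroblast genes also lay on both sides of 0. Of a further list of 36 genes, 35 were tested, of which 16 had a fold change above 0 and 19 below, against 60.0% of all genes above 0, with a median of -0.02. By edgeR 0 of them passed an adjusted p of 0.05 (smallest 0.655), and 2 were below 0.05 unadjusted, a smaller share than the 7.36% of all genes. *Podn*, an SLRP, was at 20.2 ± 4.76 CPM in CFA and 34.7 ± 11.9 in HFA, and its log2 fold change was 0.78 ± 0.27. *Ltbp2*, which encodes a microfibril protein that binds fibrillin, was at 137 ± 40.2 CPM in CFA and 94.9 ± 20.3 in HFA (SD, n = 5 each), with a log2 fold change of -0.53 ± 0.22. The wider spread in HFA was not particular to the members. The mean over the 36 genes was 5.04 ± 0.29 log2 CPM in CFA and 4.82 ± 0.63 in HFA (SD, n = 5 each). It was highest in T2224 (5.49) and lowest in T2334 (3.96), with T2314 (4.38) next. The pattern by title digit was not looked at in this list.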

How the data were processed

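The authors aligned 75-base paired reads of TruSeq libraries to GRCm38 with TopHat2 2.0.14 and Bowtie2 2.2.5 and counted them on genes with HTSeq 0.6.1. The deposited values are whole-number counts per gene, without normalization and with 1 list per mouse. Multiply aligned reads, 28.8% to 33.9% of a library's lines, were assigned to no gene.

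Symbols, positions and exon lengths were taken from GENCODE M21 (GRCm38). The diets were compared with edgeR 4.0.16 in R 4.3.3 (filterByExpr, TMM, estimateDisp, quasi-likelihood fit) with diet as the sole term, and p-values were adjusted over 15610 genes by the Benjamini-Hochberg method, at a threshold of 0.05. The authors' model also held cage, which the labels do not give. With it the paper names *Cd248*, *Emilin2*, *Tnxb*, *Pcolce*, *Sned1*, *Fn1* and *Fndc1* among its differentially expressed genes. The fit with diet alone called none of them. The biological coefficient of variation was 0.409. Log2 CPM values used a prior count of 2. Named in full were the 2 members of each role group with the highest RPKM, members below an unadjusted p of 0.05 or without overlap between groups, and the 3 highest and 3 lowest fold changes. The fit was tested on simulated data. Alternatives included DESeq2 1.42.0 and limma 3.58.1. Leaving out T1234, T1334 and T2334 together was added after the values had been seen. The members and the gene lists were chosen with earlier results of these data known. No molecular identifiers were used, and each SD is between mice.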

Additional observations from a re-analysis of the deposited data

Results flagged for a closer look

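For 10 members every HFA library was above every CFA library when the second digit of the title was 2 and below every one when it was 3. This pattern was held by 1.14% of all genes tested. The HFA libraries with the digit 3 were T2314 and T2334, in which most members were low together. The 10 members are thus not separate observations. The interaction of diet and digit, in log2 units, was -2.43 for *Ogn*, -2.42 for *Dpt*, -3.06 for *Emilin2*, -2.95 for *Tnxb*, -1.95 for *Sned1*, -3.81 for *Fndc1*, -1.70 for *Pcolce*, -1.80 for *Pdgfra*, -4.36 for *Pi16* and -4.05 for *Cd248*. By edgeR's quasi-likelihood test each had an adjusted p of 0.568, and the likelihood ratio test called *Emilin2*, *Tnxb* and *Cd248*, with 0.199% of all genes called.

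In 2 of 70 groups of 5 libraries 1 library lay far from the other 4 by Dixon's criterion, which chance gives in about 1 group of 20. *Lum* was at 103.3 CPM in the CFA library T1334, against 293 to 368 in the other CFA libraries, and *Vim* at 530.4 CPM in the CFA library T1324, against 468 to 485.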

How the results depend on the processing

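The count of members past the adjusted threshold was 0 by the quasi-likelihood test, and 0 whichever single library was left out. It was 1 (*Fbn2*) under the likelihood ratio test (0.211% of all genes called), DESeq2 (0.384%) and limma voom with quality weights (6.64%). Without T1234, T1334 and T2334 it was also 1, again *Fbn2* (2.98%). *Fbn2* had a log2 fold change of -3.26, -3.27, -3.73 and -3.89 in these 4 fits. For the interaction the count was 0, and 3 under the likelihood ratio test (0.199% of all genes). The count at an unadjusted p below 0.05, 2 in all libraries, was 5 under limma voom with quality weights (30.1% of all genes), 7 with the second title digit in the model (9.95%), 6 with lymphocyte markers as a covariate (14.02%), and 1 to 4 without single libraries (4 without T2314, where all genes gave 5.78%). The count of members above 0, 19 in all libraries, was 9 under limma voom (51.8% of all genes), 8 with the digit (58.0%), 11 with the covariate (54.6%) and 10 to 24 without single libraries (44.9% to 61.8%). The median log2 fold change of 0.05 ranged from -0.29 to 0.23 without single libraries.

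With the title digits after the first, the second digit among them, as a replicate block, 5 members were below 0.05 (6.88% of all genes) and 7 above 0 (51.8%). The labels do not say whether these digits pair the samples. The correlations of deviations within the 4 pairs were 0.30, -0.29, 0.11 and 0.41. Other pairs of libraries were not compared in this way, so these values cannot settle the question.

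Signs turned for 5 of the 13 members named in full. *Cd248* was at -0.68 under limma voom, -0.81 with the digit, -0.71 with the block and -0.48 with the covariate. *Dpt* was at -0.14, -0.39, -0.28 and -0.21 in the same order. *Pi16* was at -0.26, -0.22 and -0.11 in the first 3. *Fbln2* was at 0.0022 with RLE scaling, 0.0027 under DESeq2 and 0.11 under limma voom with quality weights, where *Dcn* was at 0.083. Without single libraries *Cd248* ranged from -0.39 to 0.33, *Dpt* from -0.31 to 0.37, *Dcn* from -0.35 to 0.18 and *Fbln2* from -0.29 to 0.22. The causes were not tested.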
